A study of Rattus norvegicus with 16 samples.

Results

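The 10 genes described here act in the absorption of dietary fat by the intestine and in its packing into lipoproteins. They are Cd36, Fabp1, Fabp2, Mogat2, Dgat1, Mttp, Apob, Apoa1, Apoa4 and Apoc3, and they were taken by gene name from the 26115 names on the array design, by a rule that used no measured value, although the set was chosen with earlier results of these data known. All 10 were on the array, with 12 probes in all, because Cd36 and Mogat2 had 2 probes each. All 12 probes passed the filter on dim probes. Suckling offspring of Wistar Han rats (labelled Wistar) received obestatin by gavage at 250 nmol per kg body weight (OH) or saline (C), both 2 times daily between the ages of 14 and 21 days, and were killed at 21 days, shortly after the morning dose. Obestatin is a peptide made from the ghrelin precursor, and the question was which gut genes respond to it when it is given into the lumen. Both treatments were measured in stomach and in middle intestine, which gave 4 groups of 4 arrays, and each array set the whole-tissue RNA of 1 rat (Cy5) against a shared reference pool (Cy3). Treatment was assigned by litter, and neither the litter nor the sex of the rats on the arrays was given, so p-values measure the spread between these arrays. In whole tissue, fewer cells of a type and less RNA per cell cannot be told apart.

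Milk fat is split in the gut lumen to fatty acids and monoacylglycerol, which enterocytes, the absorptive cells of the intestine, take up. Inside the cell, fatty acid binding proteins carry the fatty acids, and acyltransferases rebuild triglyceride at the endoplasmic reticulum. There the microsomal triglyceride transfer protein loads triglyceride onto apolipoprotein B, and the particle leaves as a chylomicron that also holds exchangeable apolipoproteins. Several of these genes are known from liver as well, which secretes its own lipoproteins, and Cd36 is also known from muscle, adipose tissue and capillary endothelium.

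The probes of the 2 fatty acid binding proteins and both probes of Mogat2 and Cd36 are shown first, since Fabp1 and Fabp2 gave different patterns in stomach and the probes of Cd36 disagreed between tissues. Each line gives the first 30 of 60 bases, as printed on the design, and no base is capitalised because no motif was searched in them. The Fabp1 probe lies at chr4:104413796-104413855 (rn4, forward strand) and the Fabp2 probe at chr2:219605027-219605086 (rn4, forward strand). The longest run of bases that these 2 probes share is 7 of 60. The Mogat2 probes lie at chr1:156516532-156516591 and chr1:156517269-156517328 (rn4, reverse strand), and start at base 1687 and base 950 of the transcript. The Cd36 probes lie at chr4:13525426-13525485 and chr4:13522273-13522332 (rn4, forward strand), and start at base 2403 and base 1587 of the transcript.
Fabp1: atcaagggggtgtcagaaatcgtgcatgaa
Fabp2: tcactcactgtgtcatgagcactgcttcca
Mogat2 brighter probe: cttggcacaaaagggcagtgctgtacatgt
Mogat2 dimmer probe: tatatcaaggagctatgcaagctctttgag
Cd36 brighter probe: gctcagccgcaactaatgtaacttcagaga
Cd36 dimmer probe: gagtagtgatgtttgttgctttcatgattt

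Promoters of 4 members were in the RefSeq table used (build GRCr8), and they are shown because the members moved together between tissues except Cd36. Each line gives the 250 bases before the start, forward strand, and capitals mark the motifs found. The windows were chr4:104749090-104749339 for Fabp1, chr2:213724379-213724628 for Fabp2, chr8:55435529-55435778 for Apoa4 and chr4:18246332-18246581 for Cd36. Those of Fabp2 and Apoa4 ended right before the gene. Those of Fabp1 and Cd36 lay inside the gene, which spans chr4:104744302-104753119 and chr4:18209088-18302142, so other starts of these genes were not searched. On both strands the motif CAAAGNNCA was searched for HNF4, GTTAATNAT for HNF1 and TTTATGG for CDX2. Factors of the GATA family were searched as AGATAA. The TATA box was searched as TATAAA. No match overlapped another.
Fabp1: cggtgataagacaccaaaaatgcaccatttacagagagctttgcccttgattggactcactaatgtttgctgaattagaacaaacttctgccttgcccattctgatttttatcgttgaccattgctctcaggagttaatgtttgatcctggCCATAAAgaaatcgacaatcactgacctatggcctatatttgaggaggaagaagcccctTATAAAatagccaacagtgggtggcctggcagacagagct
Fabp2: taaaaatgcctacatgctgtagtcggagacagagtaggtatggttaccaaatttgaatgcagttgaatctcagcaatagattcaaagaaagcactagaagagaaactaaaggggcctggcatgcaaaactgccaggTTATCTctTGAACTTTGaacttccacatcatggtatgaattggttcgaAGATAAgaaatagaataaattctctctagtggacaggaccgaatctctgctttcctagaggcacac
Apoa4: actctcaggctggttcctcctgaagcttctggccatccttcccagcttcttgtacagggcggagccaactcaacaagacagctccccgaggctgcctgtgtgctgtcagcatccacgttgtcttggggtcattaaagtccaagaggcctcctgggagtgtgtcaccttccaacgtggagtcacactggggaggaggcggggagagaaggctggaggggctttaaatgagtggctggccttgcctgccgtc
Cd36: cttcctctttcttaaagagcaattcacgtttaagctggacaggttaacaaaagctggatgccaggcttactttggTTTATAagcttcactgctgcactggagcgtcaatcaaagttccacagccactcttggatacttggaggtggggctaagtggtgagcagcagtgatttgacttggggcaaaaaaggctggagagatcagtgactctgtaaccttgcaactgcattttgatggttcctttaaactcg

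Fabp2 held an HNF4 match and a pair of GATA matches, and Fabp1 a CDX2 match. The TATA box letters lay 40 to 35 bases before the start in Fabp1, on the forward strand. In Cd36 these letters lay 175 to 170 bases before the start, on the reverse strand. Of the 33469 promoters of the table, 5.22% held the HNF4 letters, 0.666% HNF1, 2.7% CDX2, 10.3% GATA and 12.9% the TATA box. Apoa4 held none of the 5, which says only that these letters are not in its window. Apoa1, Apoc3 and Apoa4 lie close together on chromosome 8 of that build.

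A value below is the log2 ratio of Cy5 over Cy3, so that 0 means the tissue read as bright as the reference. Over the arrays, 69.4% to 77.6% of probes were well above background in Cy5. The median raw Cy3 signal was 188 to 195 on the C arrays and 341 to 399 on the OH arrays, and treatment cannot be told apart from slide or scan day. Marker lists were read to check the tissue labels, and the tissues did not overlap on either list. The mean over 9 gastric mucosa genes was 2.19 to 3.21 on the stomach arrays and -4.26 to -3.43 on the middle intestine arrays. The mean over 12 enterocyte genes was -3.47 to -2.66 in stomach, and in middle intestine it was 0.21 to 2.02. The stomach arrays differed among themselves. The mean over 8 of 10 striated muscle genes was -1.20 on C stomach replicate 2 against 2.88 to 3.73 on the other C stomach arrays, and it was -0.62 to 1.13 on the OH stomach arrays.

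The reference was labelled as a pool of stomach and middle intestine RNA of all rats, yet 7 of the 10 members had a mean ratio below 0 in all 4 groups, against 17.3% of all probes. Those 7 were Cd36, Fabp1, Mogat2, Apob, Apoa1, Apoa4 and Apoc3. Genes of the hepatocyte list stood lower still. Alb, serum albumin, ranged from -7.04 to -5.33 over the 16 arrays, and 7 of the 8 hepatocyte genes measured were below 0 on every array, with Ahsg (-0.47 to 0.15) as the exception. In the Cy3 channel Alb had a mean log2 signal of 16.3, against 10.3 in Cy5 of the stomach arrays and 9.53 in Cy5 of the middle intestine arrays. The 4 erythroid genes measured were also below 0 on every array, at -4.98 to -2.11. The Cy3 pool therefore read genes of both lists, Ahsg aside, above both tissues it was labelled with, and what this adds to the members' ratios was not tested. Differences between groups, given from here on, compare arrays labelled with the same pool. Yet all 8 hepatocyte genes had an OH minus C difference above 0 in middle intestine (median 0.29), and 6 of 8 in stomach (median 0.12). The medians over all probes were 0.001 and 0.007. In middle intestine the mean over the hepatocyte list was -3.96 in C and -3.61 in OH, and the arrays did not overlap. In stomach they overlapped. What this adds to the OH minus C differences of the members was not tested.

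**Figure D1:**
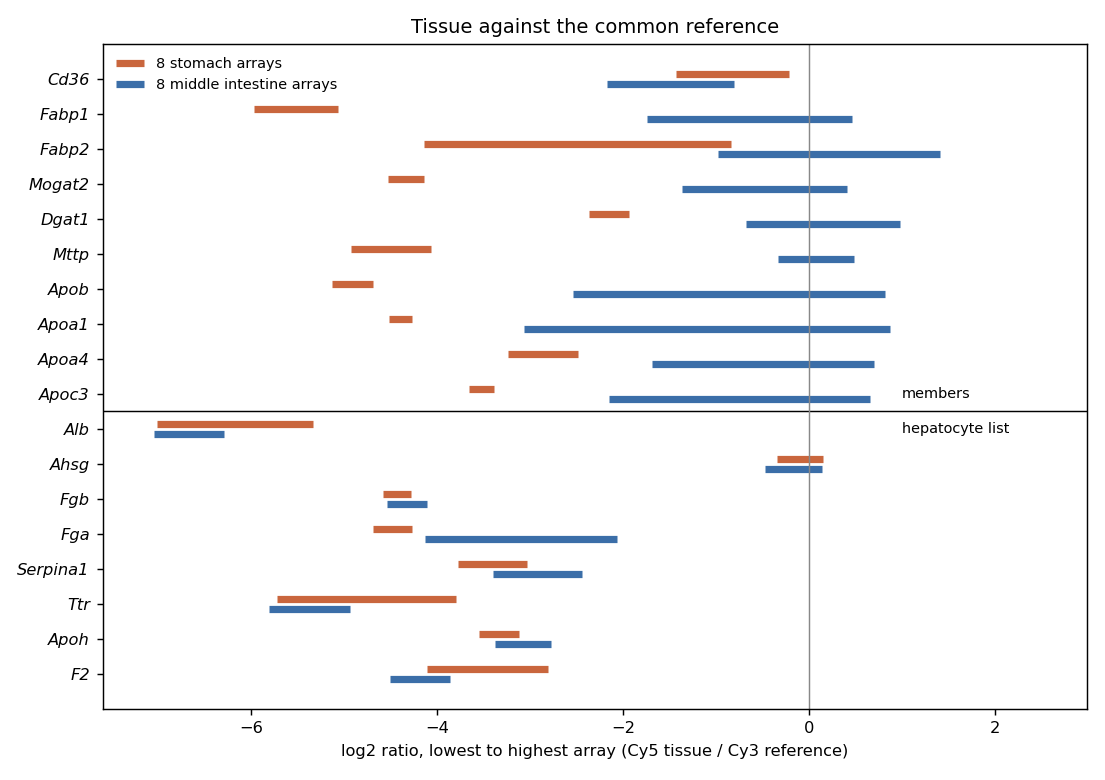
The bars run from the lowest to the highest log2 ratio (Cy5 tissue over Cy3 reference) over the 8 stomach arrays (orange) and the 8 middle intestine arrays (blue), for the 10 members above the line and 8 hepatocyte genes below it. The hepatocyte genes other than Ahsg and, of the members, Cd36 stay below 0 on every array, and 8 members have stomach bars that lie wholly under their middle intestine bars.

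Middle intestine was compared with stomach to ask where in the gut these genes are expressed, and 9 of the 10 members were higher in middle intestine in C rats as well as in OH rats. The exception was Cd36. Of all 21174 probes tested, 22.3% were higher in middle intestine in C rats and 19.1% in OH rats (limma, adjusted p under 0.05). The median difference over the members was 2.67 in C and 3.48 in OH, against 0.01 and -0.01 over all probes.

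Of the carriers, Fabp1, the liver-type fatty acid binding protein, was the member lowest against the reference in stomach. It read -5.56, -5.97, -5.80 and -5.11 on the C stomach arrays and -1.74, -1.13, -0.34 and -0.90 on the C middle intestine arrays. The groups lay far apart, and the difference was 4.58 ± 0.37 (SE) in C and 4.62 ± 0.37 in OH (limma, adjusted p = 2.29e-07 and 2.31e-07). Fabp2, the intestinal-type protein, did not show this gap on the C arrays. It read -1.15, -3.18, -1.33 and -0.83 in C stomach and -0.98, 0.06, 0.69 and -0.03 in C middle intestine. The highest stomach array stood above the lowest middle intestine array, so the groups overlapped. The difference was 1.56 ± 0.56 (SE) in C (limma, adjusted p = 0.0358), and it was 1.04 (adjusted p = 0.116) without C stomach replicate 2. It also missed the threshold without C stomach replicate 3 (adjusted p = 0.0502) or without C middle intestine replicate 2, 3 or 4 (adjusted p = 0.0736, 0.0953 and 0.0637). In OH rats the difference of Fabp2 was 3.45 ± 0.56 (adjusted p = 0.000225), with no overlap.

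Mogat2 and Dgat1 code for enzymes that rebuild triglyceride, the first adding a fatty acid to monoacylglycerol and the second to diacylglycerol. The brighter Mogat2 probe read -4.41, -4.46, -4.52 and -4.53 on the C stomach arrays and -0.50, -0.47, 0.01 and -0.80 on the C middle intestine arrays. The difference was 4.04 ± 0.30 (SE) in C and 3.87 ± 0.30 in OH (limma, adjusted p = 8.47e-08 and 1.48e-07). The dimmer probe, which was well above background on 3 of the 4 arrays of each stomach group, gave 2.91 ± 0.61 (SE) and 3.27 ± 0.61, in the same direction. Dgat1 was the member with the smallest gap among those whose groups did not overlap. It read -1.93, -2.36, -2.06 and -2.04 in C stomach and -0.26, -0.06, 0.42 and -0.38 in C middle intestine, a difference of 2.02 ± 0.28 (SE) in C and 2.42 ± 0.28 in OH (limma, adjusted p = 4.49e-05 and 8.80e-06).

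Mttp, the transfer protein that loads triglyceride onto apolipoprotein B, had the largest difference of the 10 in C rats. It read -4.80, -4.71, -4.93 and -4.85 on the C stomach arrays and -0.19, 0.48, 0.42 and 0.22 on the C middle intestine arrays. On the OH arrays it read -4.06, -4.41, -4.58 and -4.49 in stomach and 0.36, 0.19, -0.34 and 0.10 in middle intestine. The tissues did not overlap in either treatment, and the gene was nearly level within each group. The difference was 5.05 ± 0.17 (SE) in C, or 33.2-fold, and 4.46 ± 0.17 in OH, or 22.1-fold (limma, adjusted p = 2.42e-11 and 8.99e-11). Apob, the structural protein of chylomicrons, read -4.69, -4.95, -4.97 and -4.76 on the C stomach arrays and -1.45, -1.58, -1.53 and -0.59 on the C middle intestine arrays. Its difference was 3.55 ± 0.54 (SE) in C and 4.47 ± 0.54 in OH (limma, adjusted p = 0.000108 and 1.41e-05).

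The 3 neighbouring apolipoprotein genes differed in the same direction in both treatments. Apoa1, the main protein of high density lipoprotein, was higher in middle intestine by 2.87 ± 0.58 (SE) in C and 3.51 ± 0.58 in OH. Apoa4, an apolipoprotein of newly made chylomicrons, was higher by 2.46 ± 0.40 and 2.53 ± 0.40. Apoc3, an inhibitor of lipoprotein lipase, was higher by 2.39 ± 0.44 and 2.83 ± 0.44. The limma adjusted p-values of these 6 differences lay between 0.000155 and 0.00112, and no stomach array of the 3 genes overlapped a middle intestine array of the same treatment. On the C stomach arrays Apoc3 read -3.63, -3.64, -3.66 and -3.64, a spread of 0.01 (SD, n = 4), whereas on the OH middle intestine arrays it read 0.00, 0.66, -2.15 and -1.05, a spread of 1.23 (SD, n = 4).

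Cd36, a fatty acid translocase, stood apart from the others. Its brighter probe read -1.42, -1.22, -1.20 and -1.28 in C stomach and -2.0, -1.46, -1.03 and -1.23 in C middle intestine. The groups overlapped, and the difference was -0.15 (95% interval -0.76 to 0.46; limma adjusted p = 0.697). In OH rats it was -0.67 ± 0.29 (SE; adjusted p = 0.0814), and it passed without OH stomach replicate 3 (-0.84, adjusted p = 0.0379) or OH middle intestine replicate 2 (-0.85, adjusted p = 0.0352). The dimmer probe was higher in middle intestine by 0.73 ± 0.24 (SE; adjusted p = 0.0210) in C and by 0.18 ± 0.24 (adjusted p = 0.573) in OH, so the 2 probes of Cd36 disagreed in sign in both treatments.

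**Figure D2:**
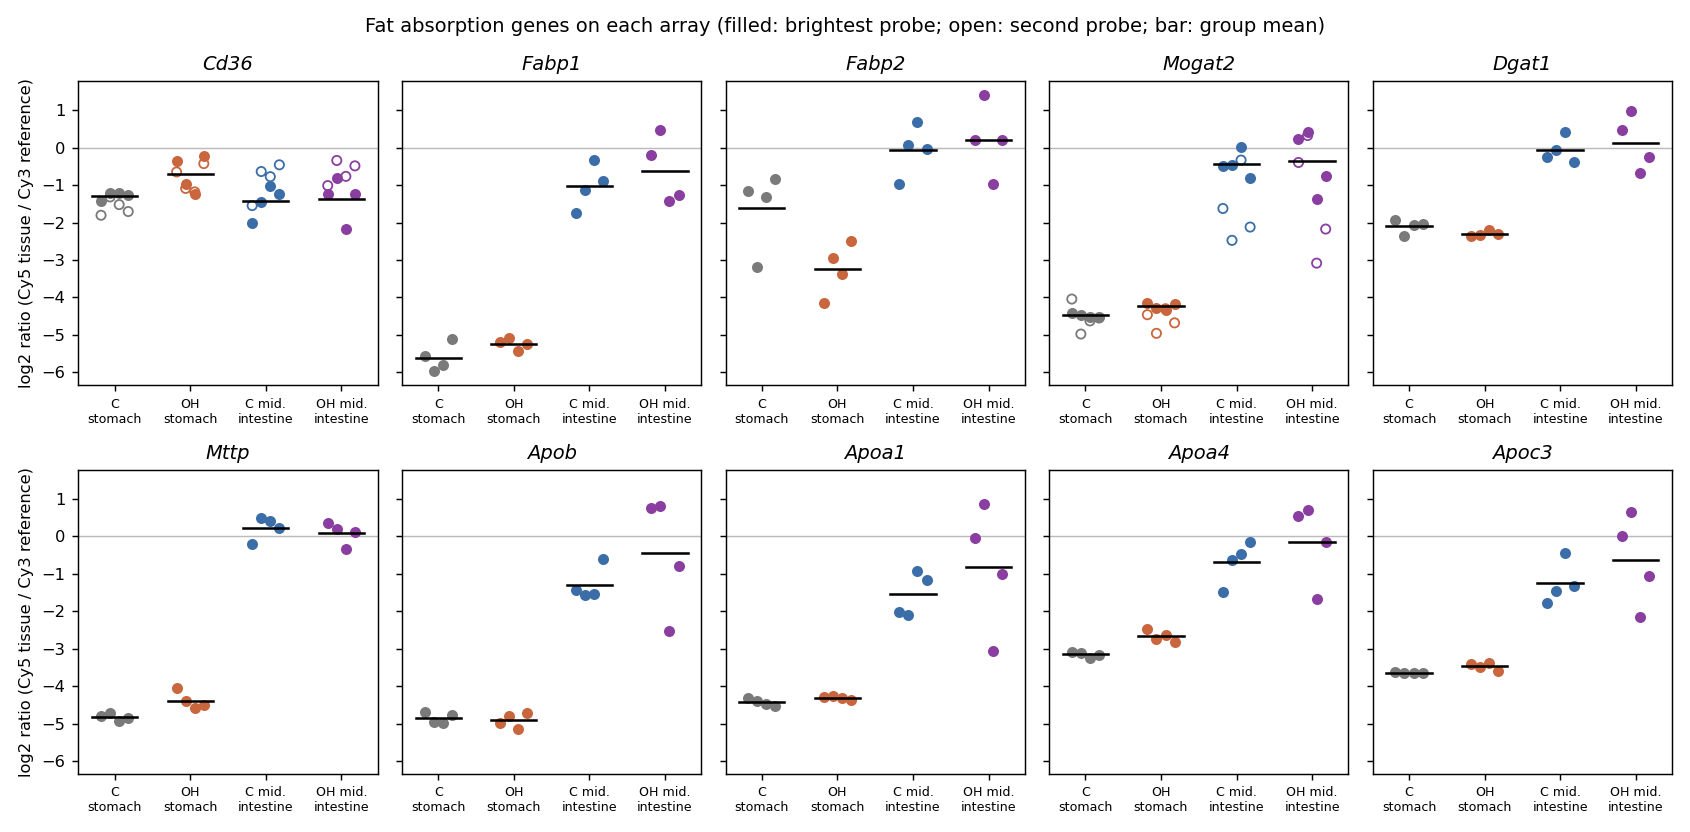
Each panel gives the log2 ratio (Cy5 tissue over Cy3 reference) of 1 gene on the 16 arrays, with filled points for the brightest probe, open points for the second probe of Cd36 and Mogat2, and bars for the mean of 4 arrays. All genes but Cd36 and Fabp2 have stomach points below every middle intestine point of the same treatment, and the OH middle intestine points of Apoa1, Apob, Apoc3 and Apoa4 span 3.93, 3.36, 2.81 and 2.39.

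Obestatin was compared with saline in stomach, and no member passed the adjusted threshold, as was true of all 21174 probes tested (0% of probes; limma). Of all probes 2.1% passed without the filter on dim probes, 3.35% of those kept by the methods' test and 1.47% without C stomach replicate 2, and under none of these did a member pass. At an unadjusted p under 0.05 there were 2 members, Fabp2 and Mttp, and 10.6% of all probes. The median difference over the 10 members was 0.21, against 0.01 over all probes.

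Fabp2 had the largest difference of the members. On the OH stomach arrays it read -4.14, -2.94, -3.38 and -2.49, against -1.15, -3.18, -1.33 and -0.83 on the C stomach arrays. Only C stomach replicate 2 lay among the OH arrays, and the other 3 C arrays were above all of them. The difference was -1.61 ± 0.56 (SE), with an unadjusted limma p of 0.0124, an adjusted p of 0.369 and an exact two-sided permutation p of 0.0857. It was -2.13 (adjusted p = 0.0586) without C stomach replicate 2 and -1.80 (adjusted p = 0.0211) with array weights, under which 5.56% of all probes passed. Over all settings other than the leaving out of single arrays, the adjusted p ranged from 0.0211 to 0.390. The difference lay in the tissue channel, where the log2 Cy5 signal differed by -1.35 and Cy3 by 0.26. The same C array stood low on the striated muscle list, and the 3 C arrays high in Fabp2 were those high on that list. Of the OH arrays, replicate 1 was lowest in Fabp2 (-4.14) and highest on the striated muscle list (1.13), so the order did not hold there. On the mean over 11 of 12 squamous epithelium genes of the forestomach, a list added after the values were seen, C stomach replicate 2 (0.32) was lower than the other 3 C arrays (1.15 to 1.81) and OH replicate 1 was the lowest of all (0.18). OH replicate 2 (1.21) stood above C replicate 1 on that list although its Fabp2 was lower, so the order did not hold there either. The part of these tissues in the Fabp2 values was not tested. The enterocyte list read -2.66, -3.36, -2.77 and -2.84 on the C stomach arrays and -3.32, -3.21, -3.06 and -3.47 on the OH stomach arrays. As in Fabp2, C replicate 2 lay among the OH arrays and the other C arrays were above all of them. Within OH the order differed, since replicate 4 was lowest on this list and highest in Fabp2. The part of enterocytes in the Fabp2 values was not tested either.

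The 5 genes nearest to Fabp2 over the 8 stomach arrays, by the root mean square difference of centred log2 ratios among 11683 named genes, were Lrrc39, Psapl1, Oasl, Sdcbp2 and Cda, at 0.23 to 0.32. This comparison was chosen after the Fabp2 values were seen. Psapl1 read 3.89, 1.26, 3.87 and 3.93 on the C stomach arrays and 0.52, 2.23, 1.37 and 2.11 on the OH stomach arrays. Like Fabp2, it was lower on C replicate 2 than on the other C arrays and lowest of all on OH replicate 1. Psapl1 was picked for its likeness to Fabp2 on these same arrays, so this order is no separate result. In middle intestine, where Fabp2 was near the reference, Psapl1 read between -6.68 and -5.40.

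Cd36 read -0.37, -0.97, -1.23 and -0.22 on the OH stomach arrays with its brighter probe, against -1.42 to -1.20 on the C arrays. OH replicates 1, 2 and 4 were above every C array, whereas replicate 3 lay among them. The difference was 0.59 ± 0.29 (SE; limma adjusted p = 0.487). The dimmer probe read -0.65, -1.09, -1.18 and -0.43 in OH and -1.81, -1.32, -1.52 and -1.71 in C. Its groups did not overlap, with a difference of 0.75 ± 0.24 (SE), an unadjusted limma p of 0.00655, an adjusted p of 0.316 and an exact two-sided permutation p of 0.0286, the smallest that 4 arrays against 4 allow. The mean over 5 of 6 capillary endothelium genes was -0.24, -1.02, -1.57 and -0.27 on the OH stomach arrays and -1.49 to -1.18 in C. OH replicate 3 was the lowest stomach array on that list, whereas the dimmer Cd36 probe read above every C array on it. The mean over 7 smooth muscle genes was 0.91, -1.47, -2.57 and 0.08 in OH and -2.57 to -1.49 in C. Of the 8 striated muscle genes none had a difference above 0 (median -2.20), and of the 6 adipocyte genes 2 did (median -0.74). The part of these cells in the Cd36 values was not tested.

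**Figure D3:**
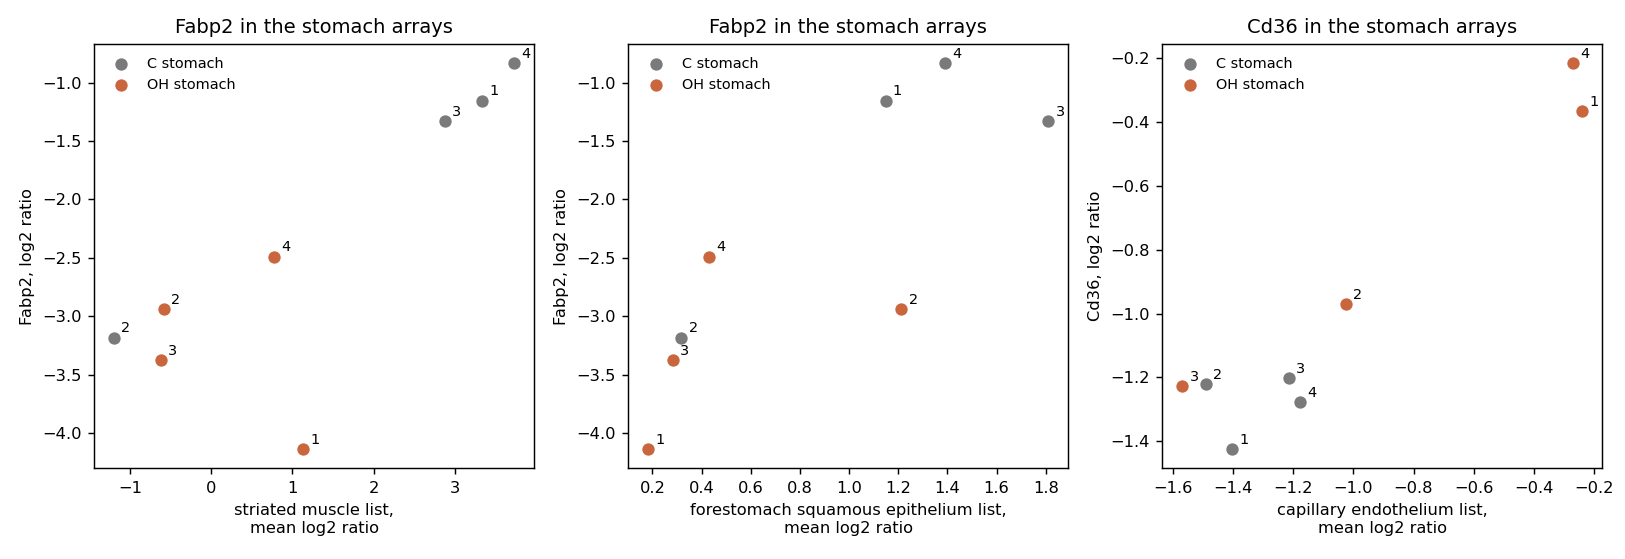
Each point is 1 of the 8 stomach arrays, numbered by replicate, with the log2 ratio of Fabp2 or Cd36 on the y axis and the mean log2 ratio of a marker list on the x axis. C replicate 2 lies with the OH arrays in both Fabp2 panels, and in the Cd36 panel OH replicates 1 and 4 are high on both axes.

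In 4 members, Mttp, Mogat2, Apoa4 and Apoc3, every OH stomach array was above every C stomach array with the brightest probe, which held for 4.09% of all probes. No member was below on all arrays (3.51% of all probes). Apoa4 read -2.48, -2.74, -2.65 and -2.83 on the OH arrays and -3.08, -3.12, -3.24 and -3.16 on the C arrays. Its OH minus C change was 0.40 in Cy5 and -0.07 in Cy3, where the median Cy3 change over all probes was 0.33. Cy3 of Mttp, Mogat2 and Apoc3 changed by 0.32, 0.33 and 0.22. Before dye normalization Apoa4 changed by 0.13 in Cy5 and 0.58 in Cy3. What the reference channel adds to the Apoa4 difference was not tested. Mogat2 read -4.14, -4.29, -4.33 and -4.19 on the OH arrays and -4.53 to -4.41 on the C arrays, and its second probe overlapped between the groups. Apoc3 read -3.40, -3.48, -3.39 and -3.60 on the OH arrays and -3.66 to -3.63 on the C arrays. The groups lay close to each other in all 4 genes. Mttp differed by 0.44 ± 0.17 (SE; limma adjusted p = 0.413), Apoa4 by 0.48 ± 0.40 (adjusted p = 0.707), Mogat2 by 0.24 ± 0.30 (adjusted p = 0.808) and Apoc3 by 0.18 ± 0.44 (adjusted p = 0.919). The standard errors come from all 4 groups, and these genes spread far less in stomach than in middle intestine. With only the 8 stomach arrays in the fit, the standard errors fell to 0.08 to 0.13 and the adjusted p-values lay between 0.318 and 0.428, still above the threshold. Mttp, Mogat2 and Apoc3 were among the 6 members whose mean ratio was below -3 in both stomach groups, a level chosen after the values were seen, and of the 313 probes below it 3.51% had every OH array above every C array. Fabp1 differed by 0.37 (95% interval -0.43 to 1.17), Apoa1 by 0.10 (-1.14 to 1.35), Apob by -0.06 (-1.22 to 1.1) and Dgat1 by -0.20 (-0.80 to 0.40).

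In middle intestine no member passed the adjusted threshold between OH and C, where 0.368% of all probes did (limma), and none had an unadjusted p under 0.05 (10.5% of all probes). The OH and C arrays overlapped for all 12 probes of the members, whereas 3.72% of all probes were higher and 2.13% lower on every OH array. The median difference over the members was 0.35, against 0.00 over all probes. Of the 10 differences 9 were above 0, with Mttp below, against 50.2% of all probes. Most members rose and fell together over the OH arrays, so these signs are not separate results.

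For Apob and Apoa1 the OH middle intestine arrays spread on both sides of the C arrays. Apob read 0.76, 0.82, -2.54 and -0.79 on them, and Apoa1 read -0.04, 0.87, -3.06 and -1.01. Replicates 1 and 2 were above every C array of both genes, and replicate 3 was below every C array. The differences between the groups were 0.85 ± 0.54 (SE) for Apob and 0.74 ± 0.58 for Apoa1 (limma, adjusted p = 0.658 and 0.737). Apoa4 read 0.54, 0.71, -1.68 and -0.15 on the OH arrays and -1.47, -0.64, -0.48 and -0.15 on the C arrays, with the same OH replicate lowest. Apoa4 and Apoc3 differed by 0.54 ± 0.40 (SE) and 0.62 ± 0.44 (adjusted p = 0.719 and 0.705). Without replicate 3 of OH the differences were 1.55 for Apob, 1.49 for Apoa1, 1.05 for Apoa4 and 1.12 for Apoc3, with adjusted p-values between 0.0863 and 0.177. These were the largest of the 8 fits that each left out 1 array of these groups. The smallest were 0.43 for Apob, 0.18 for Apoa1, 0.26 for Apoa4 and 0.19 for Apoc3, and adjusted p-values reached 0.932 to 0.970. Fabp1 read -0.21, 0.46, -1.43 and -1.28 on the OH arrays, a difference of 0.42 ± 0.37 (SE; adjusted p = 0.789), and Fabp2 differed by 0.28 ± 0.56 (adjusted p = 0.951). Mttp, the partner of Apob, stayed between -0.34 and 0.36 on the OH arrays and differed by -0.15 ± 0.17 (SE; adjusted p = 0.852).

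Replicate 3 was the lowest of the 4 OH middle intestine arrays for all 10 members, against 27.8% of all probes. Replicate 2 was the highest for 9, against 26.1%, with Mttp as the exception. The range over the 4 arrays was above 2 for 5 members, Fabp2, Apob, Apoa1, Apoa4 and Apoc3, against 2.72% of all probes, and on the C middle intestine arrays it was above 2 for none of the 10, against 2.4%. These counts, over the brightest probe of each gene, were chosen after the values were seen. The enterocyte list had the same order, with 2.02 on replicate 2, 1.18 on replicate 1, 0.54 on replicate 4 and 0.33 on replicate 3. Its range of 1.69 stood beside a range of 2.21 for the mean over the 10 members. The jejunum list held Gata4, Slc40a1, Cybrd1, Pdx1 and Lct, which are not particular to jejunum, and Lct was also on the enterocyte list. The mean over these 5 genes was 0.96, -0.24, -1.18 and -0.48 on replicates 1 to 4. That over 5 of 8 ileum genes was 0.50, 1.32, 0.76 and 0.71. The place along the intestine from which each piece was taken cannot be read from the labels, and its part in these values was not tested.

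**Figure D4:**
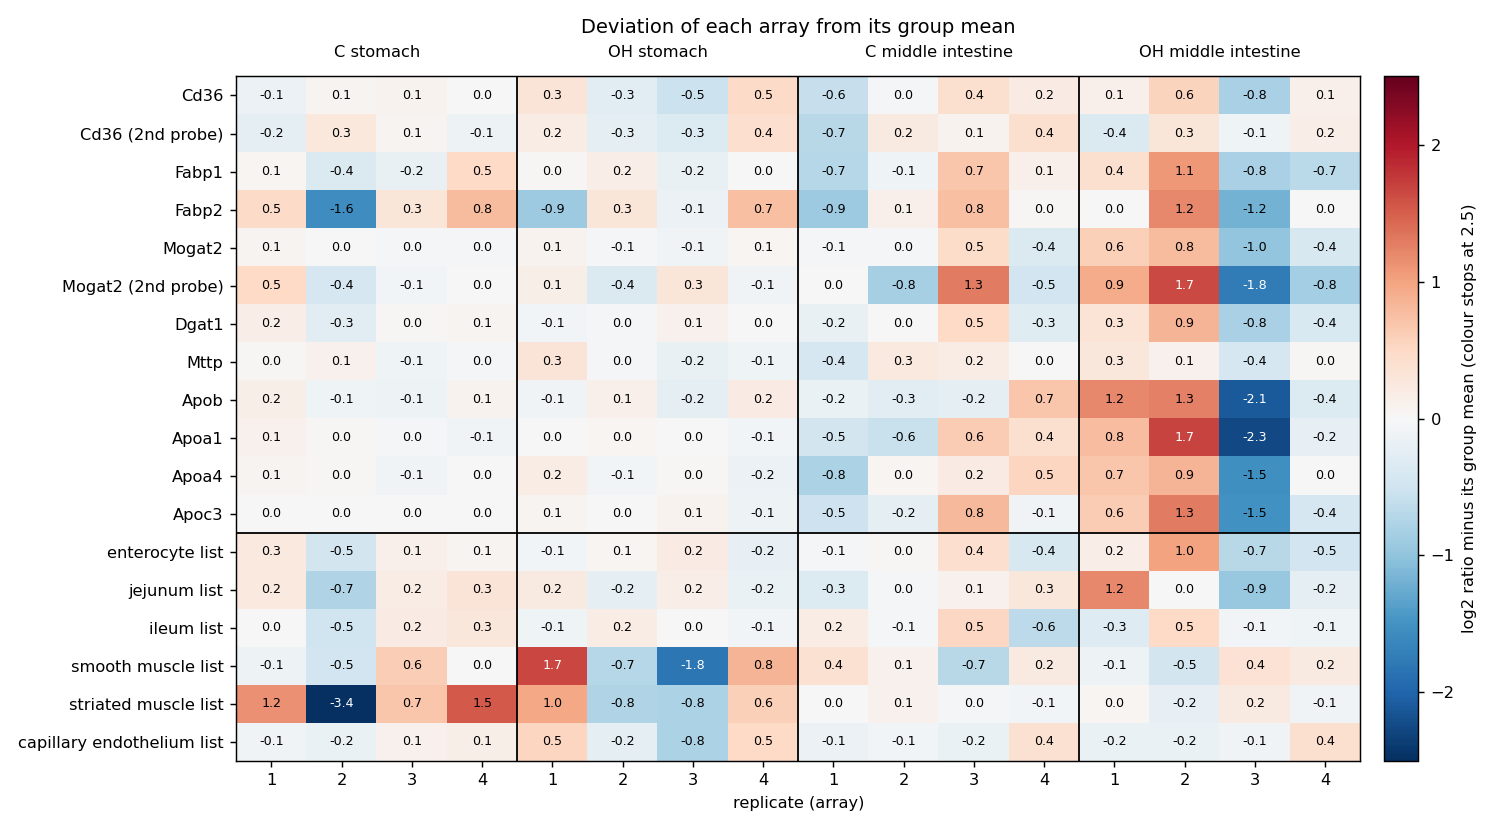
Each cell gives the log2 ratio of an array minus the mean of its group, for the 12 probes of the members (upper block) and for 6 marker lists (lower block). Within OH middle intestine replicate 3 is lowest for all member probes but the second of Cd36, and replicate 2 is highest for all but Mttp. In C stomach replicate 2 is low for Fabp2 and the striated muscle list.

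The reference itself was not level within that group for the brightest members. Cy3 of Apoa4 ranged from 16.8 to 18.4 on the OH middle intestine arrays, although each was labelled with the same pool, and before dye normalization it still ranged from 17.5 to 18.6. Cy3 of Apob ranged from 13.4 to 13.7, and Cy5 of Apob from 11.2 to 14.3. Between OH and C in middle intestine the ratio of Apoa4 differed by 0.54, of which Cy5 gave 0.03 and Cy3 -0.51, whereas Apob differed by 1.01 in Cy5 and 0.16 in Cy3.

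**Figure D5:**
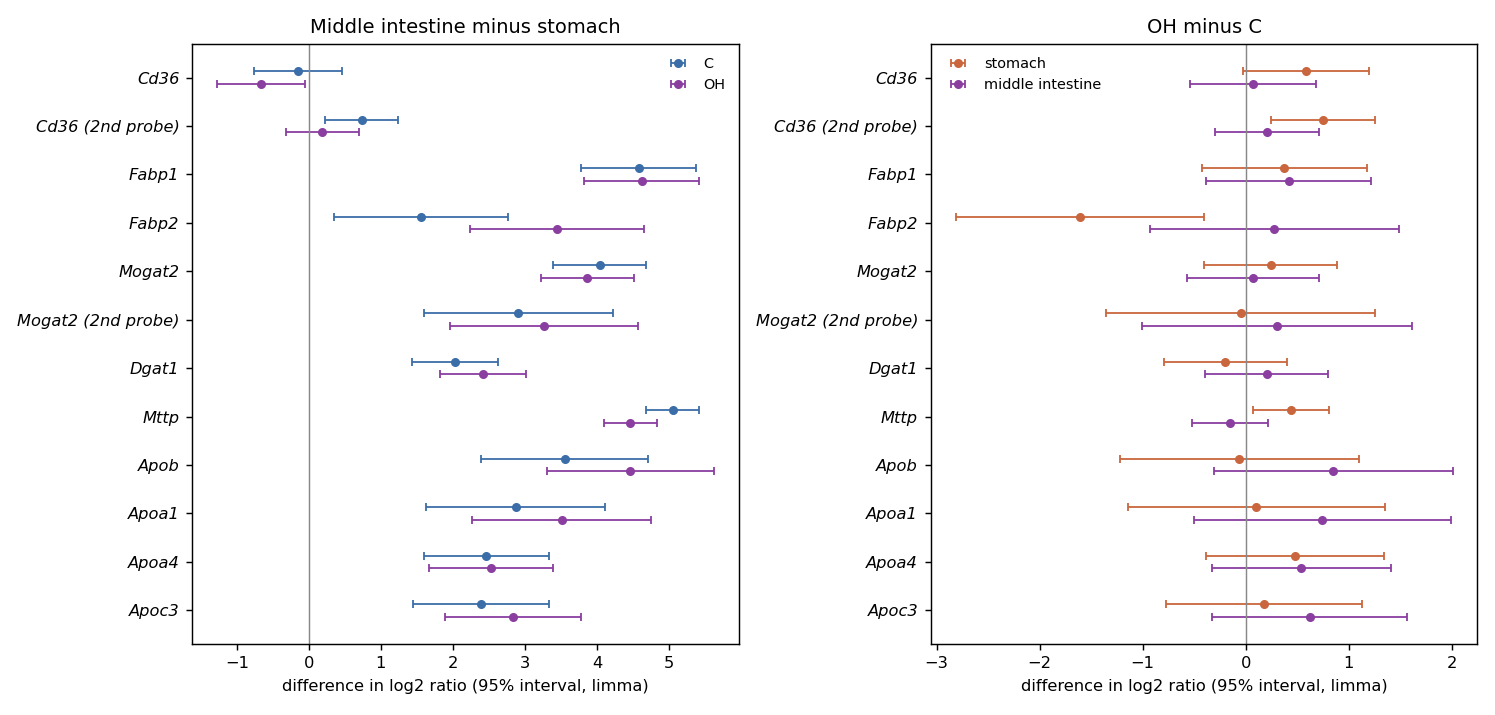
Points give the difference in log2 ratio and bars its 95% interval from the limma fit over 16 arrays, for each probe of the members, between tissues (left) and between OH and C (right). Between tissues the intervals lie above 0 for all genes but Cd36, and between OH and C most intervals hold 0, with Fabp2, Mttp and the second Cd36 probe in stomach as the exceptions, none of which passed after adjustment.

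Whether the response to obestatin differed between the tissues was tested as an interaction, which no member and 0% of all probes passed (limma). At an unadjusted p under 0.05 there were 2 members and 5.85% of all probes. Fabp2 had a difference of 1.89 ± 0.80 (SE; unadjusted p = 0.0323) and Mttp of -0.59 ± 0.24 (unadjusted p = 0.0288), with an adjusted limma p of 0.836 for both. The OH minus C difference of Mttp was 0.44 in stomach and -0.15 in middle intestine.

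Of the 85 genes measured in 7 lists of other genes of fat handling, none passed between OH and C in either tissue (limma). An unadjusted p under 0.05 was reached by 7 in stomach and 9 in middle intestine, against 10.6% and 10.5% of all probes. In each list the 2 genes with the largest difference in middle intestine are given. Of the uptake list (11 genes measured), Scarb1, a scavenger receptor for lipoproteins, differed by 0.51 ± 0.22 (SE) and Abcg5, a sterol exporter, by 0.49 ± 0.61. Of the 14 genes of triglyceride and sterol ester synthesis, Lpin2, a phosphatidate phosphatase, differed by 0.97 ± 0.23 (limma adjusted p = 0.10) and Dgat2, the other diacylglycerol acyltransferase, by 0.59 ± 0.44. Of the 20 genes of chylomicron assembly and export, Apom differed by 0.68 ± 0.26 and Sec23a, a coat protein of transport vesicles, by 0.39 ± 0.15. The medians over these 3 lists were 0.21, 0.17 and 0.12 in middle intestine and -0.10, -0.08 and -0.02 in stomach, against 0.00 and 0.01 over all probes.

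The other 4 lists had stomach medians of -0.21 (transcription factors), -0.12 (carriers), -0.33 (lipid droplets) and 0.39 (luminal lipolysis). Of 16 transcription factors, Hnf4g, a nuclear receptor of enterocytes, differed between OH and C in middle intestine by 0.73 ± 0.29 (SE) and Pparg by 0.71 ± 0.28, and the list median was 0.10. Of 9 intracellular carriers, Fabp3 differed by 0.24 ± 0.20 and Fabp5 by -0.23 ± 0.34, with a median of 0.00. Of 11 lipid droplet genes, Lipe, hormone-sensitive lipase, differed by -0.81 ± 0.42 and Cidec by 0.39 ± 0.52, with a median of 0.02. Of 4 genes of luminal lipolysis, which code for pancreatic enzymes and their cofactor, Cel differed by 0.76 ± 0.44, with a list median of 0.52. Pnliprp1, the other gene of that list to be named, was well above background on no C middle intestine array and on 2 of 4 in OH. The mean over 7 of 8 pancreas genes was -1.46 on OH middle intestine replicate 4 and -3.84 to -3.07 on the other middle intestine arrays, and its part in those values was not tested.

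Between tissues most of these lists held genes of both directions. Of all probes 22.7% were lower in middle intestine in C rats, beside the 22.3% that were higher. In C rats 5 uptake genes were higher and 3 lower in middle intestine, with Abcg5 higher by 5.60 ± 0.61 (SE; limma adjusted p = 4.65e-06), although it was well above background on only 1 of the 4 C stomach arrays. Of the chylomicron list 8 were higher and 3 lower, and of the transcription factors 9 were higher and 3 lower, with Hnf4g higher by 3.88 ± 0.29 (adjusted p = 9.72e-08). Of triglyceride and sterol ester synthesis 4 were higher and 4 lower, as were 4 and 4 of the lipid droplet list. Of the carriers 3 were higher and 4 lower. Fabp3, the muscle and heart type, and Fabp5, the epidermal type, were lower in middle intestine by differences of -5.79 ± 0.20 (adjusted p = 3.04e-11) and -2.85 ± 0.34 (adjusted p = 1.14e-05). All 4 luminal lipolysis genes were lower.

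The genes whose profile over the 16 arrays lay nearest to the mean profile of the 10 members were Guca2b, Btnl3, Ms4a10, Stra6l and Gucy2c, with root mean square differences of 0.17, 0.28, 0.29, 0.29 and 0.30 on the log2 scale. The mean profile itself had an SD of 1.62 over the arrays. Guca2b codes for uroguanylin, a gut peptide, and Gucy2c for the receptor it binds. On the OH middle intestine arrays Guca2b read 0.77, 1.29, -0.77 and -0.04, with the order of the members, for which it was picked. On the stomach arrays it read between -3.0 and -2.62.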

How the data were processed

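Stomach and middle intestine RNA of OH and C rats was hybridised to 16 two-colour rat arrays, each tissue in Cy5 against 1 pool in Cy3, with no dye swap. The authors deposited Feature Extraction files whose intensity columns were background-subtracted and dye-normalized (per the file headers version 10.10.1.1, and per the labels 10.7.3.1). They also deposited a table of log10 ratios with column medians of 0 to 0.00687, which equalled the log ratio column of the scanner files within 0.005, and it served as an alternative. From the intensities the log2 ratio of Cy5 over Cy3 was computed, without control spots or outlier-flagged spots, and spots of a probe were averaged. No spot was saturated. Kept were 21174 of 30367 probes, those whose Cy5 signal was well above background on each of the 4 arrays of some group and which had at least 3 values in every group. Each gene was read from its brightest kept probe. Differences were tested with limma 3.58.1 in R 4.3.3 (lmFit and eBayes, 1 mean per group) with Benjamini-Hochberg adjustment over all kept probes at 0.05. The number of arrays limits the precision. Each group lay on a slide of its own, and the scan day followed the treatment, so that no block for slide could be made. The text names all members, the 2 genes of each pathway list with the largest difference between OH and C in middle intestine, and the 5 genes nearest to the members. Members and lists were chosen with earlier results of these data known. The alternatives were other background, dye and array scaling, filters, probe rules, blocks, weights and arrays left out.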

Additional observations from a re-analysis of the deposited data

Results flagged for a closer look

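In 96 groups of 4 arrays (12 member probes and 12 list means), 9 held an array that stood far from the other 3 against the range of its group, and chance gives about 1 in 20. Of the members this was Apob on C middle intestine replicate 4, at a log2 ratio of -0.59. The other 8 were list means. The adipocyte list read -0.37 on C stomach replicate 2, -2.07 on OH stomach replicate 2 and -0.17 on OH middle intestine replicate 1. The capillary endothelium list read -0.38 on C middle intestine replicate 4 and -0.34 on OH middle intestine replicate 4. The forestomach list read -2.85 on OH middle intestine replicate 4, the hepatocyte list -3.88 on C middle intestine replicate 4, and the jejunum list -1.88 on C stomach replicate 2.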

How the results depend on the processing

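With array weights 1 member, Fabp2, passed between OH and C in stomach (-1.80, limma adjusted p = 0.0211), when 5.56% of all probes also passed. Under the other alternatives none passed there, and Fabp2 ranged from -2.13 to -1.49, or from -2.13 to -1.31 with single arrays left out (adjusted p = 0.0586 to 0.737). It was -2.13 (adjusted p = 0.0586) without C stomach replicate 2. Of the 9 members higher in C middle intestine, Fabp2 was lost under the replicate block (adjusted p = 0.0504). Without the filter on dim probes, under scaling between arrays and by the methods' test (Tukey) it was lost too. The same held without C stomach replicate 2 and OH middle intestine replicate 4 together. Fabp2 was lost as well when some single arrays were left out, where the count was 8 to 9. Scaling between arrays, no dye normalization and the leaving out of those 2 arrays together were chosen after seeing the data. Some differences that had not passed turned sign. Between tissues in C, Cd36 was 0.29 as the mean of its probes and -0.28 to 0.041 with arrays left out. Under scaling between arrays, Apob and Dgat1 differed by 0.62 and 0.073 between OH and C in stomach. With arrays left out, the OH minus C difference ranged from -0.13 to 0.013 for Apob in stomach, and in middle intestine from -0.12 to 0.67 for Fabp2, -0.12 to 0.34 for Cd36, -0.19 to 0.40 for Mogat2 and -0.081 to 0.47 for Dgat1. Cd36 passed between tissues in OH under scaling (-0.94), the replicate block within treatment (-0.67), and without OH stomach replicate 3 (-0.84) or OH middle intestine replicate 2 (-0.85). Same-numbered arrays of both tissues correlated at 0.0581 to 0.246 in C and -0.123 to 0.322 in OH. The same number was the best match for 3 arrays in C and 2 in OH. The labels do not say whether both tissues came from the same rats, and these correlations cannot decide it. The numbers were not taken as pairs. The replicate block left the count of members called at 0 between OH and C in both tissues, at 9 between tissues in OH and at 8 in C. Aquantile and the leaving out of saturated spots changed nothing by construction. The cause of these changes was not tested.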
